A study of Drosophila melanogaster with 12 samples.

Results

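Mitochondrial ribosomal proteins, named mRpL for the large and mRpS for the small subunit, are the nuclear-encoded proteins of the ribosome inside mitochondria. They were taken as all genes of the linear RNA table whose symbol starts with mRpL or mRpS and a number, which gave 71 of 5954 listed genes, 45 of the large and 26 of the small subunit. The annotation holds 73 such symbols; mRpL41 and mRpL53 were not analysed here. The RNA came from stage 14 follicles, the mature egg chambers of the Drosophila melanogaster ovary, at the time points day 12 and day 2, from flies of the wild-type stock Oregon R in both groups. Each day had 3 linear RNA libraries, labelled as biological replicates, and 3 circular RNA libraries, which are not used here because the circular RNAs carry no gene names. The labels name the tissue as ovaries, and give neither the age of the females nor the point from which the days are counted.

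The mitochondrial ribosome descends from a bacterial one and translates the few messenger RNAs of the mitochondrial genome, which code for core subunits of the respiratory chain and the ATP synthase. Its proteins are made in the cytosol and imported, while its ribosomal RNAs are transcribed inside the organelle. The Drosophila egg is loaded with mitochondria and with maternal messages during oogenesis, and the oocyte of a stage 14 follicle is largely silent in transcription, so its messages are mainly a stored stock.

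For every transcript the authors deposited 1 abundance per day, the mean of 3 libraries, in a unit that is not stated; no value of a single library was used here, so no spread between libraries can be given, and depth is unknown. StringTie, a tool named in the submitters' processing notes, scales abundances to transcript length, and levels of different genes are set side by side below on that reading. The transcripts of a gene were summed, and the log2 ratio of the sums is day 12 over day 2. The listed values total 634242 at day 12 and 628567 at day 2. All 8 oocyte and maternal marker genes looked up were listed, summing to 4514 at day 12 and 4006 at day 2. Each of the 8 was higher at day 12, with a median log2 ratio of 0.16, beside 0.04 over all listed genes. Of the markers of other cells, 0 of 6 muscle and 0 of 3 hemocyte genes were listed. Of 3 early germline genes 1 was listed, bam, at 46.2 at day 12 and 44.2 at day 2. In mature follicle cells 1 of 4 was listed, Ilp8, at 80.1 at day 12 and 50.1 at day 2. By the authors' deposited table the unadjusted p of its main transcript was 0.186. Cp15, a chorion gene outside the marker lists and added here after its values were seen, went the other way. It was at 20.8 at day 12 and 254 at day 2 (unadjusted p = 0.00275 by the authors' deposited table). The 3 of 7 listed genes of earlier follicle cells, Yp1, Yp2 and Yp3, summed to 2.43 at day 12 and 21.2 at day 2. The part of cell makeup in the values below was not tested, and in whole follicles fewer cells of a type and less RNA per cell cannot be told apart.

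On the authors' scale, the share of mitochondrial ribosomal protein messages was close to level between the days. The listed totals of the days are close to each other and the unit is not stated, so amounts per follicle were not compared. The 71 genes together summed to 4884 at day 12 and 4745 at day 2, which is 0.770% and 0.755% of the listed totals of those days. Their median level was 69.7 at day 12 and 65.6 at day 2. The median log2 ratio was 0.04, with quartiles of -0.04 and 0.09, and 46 genes were higher and 25 lower at day 12. Over all listed genes the median was also 0.04, with 58.5% higher, so that on a scale centred on all genes the members' median was -0.01 and 32 of 71 were higher. Within 0.1 of 0 on the log2 scale lay 49 of 71 members, or 69.0%, against 37.2% of all listed genes. Such a share depends on the centre of the ratios as well as on their spread. The distance between the quartiles was 0.14 for the members and 0.26 for all listed genes. Among genes with 1 listed transcript of 400 to 1200 nt and a mean level of 20 to 200, it was 0.14 for 43 members and 0.12 for all 733, so the members were no narrower than genes of like level and length. The shares within 0.1 of 0 were 74.4% and 50.3% there, beside median log2 ratios of 0.04 and 0.08. These values describe means of 3 libraries and carry no test.

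**Figure D1:**
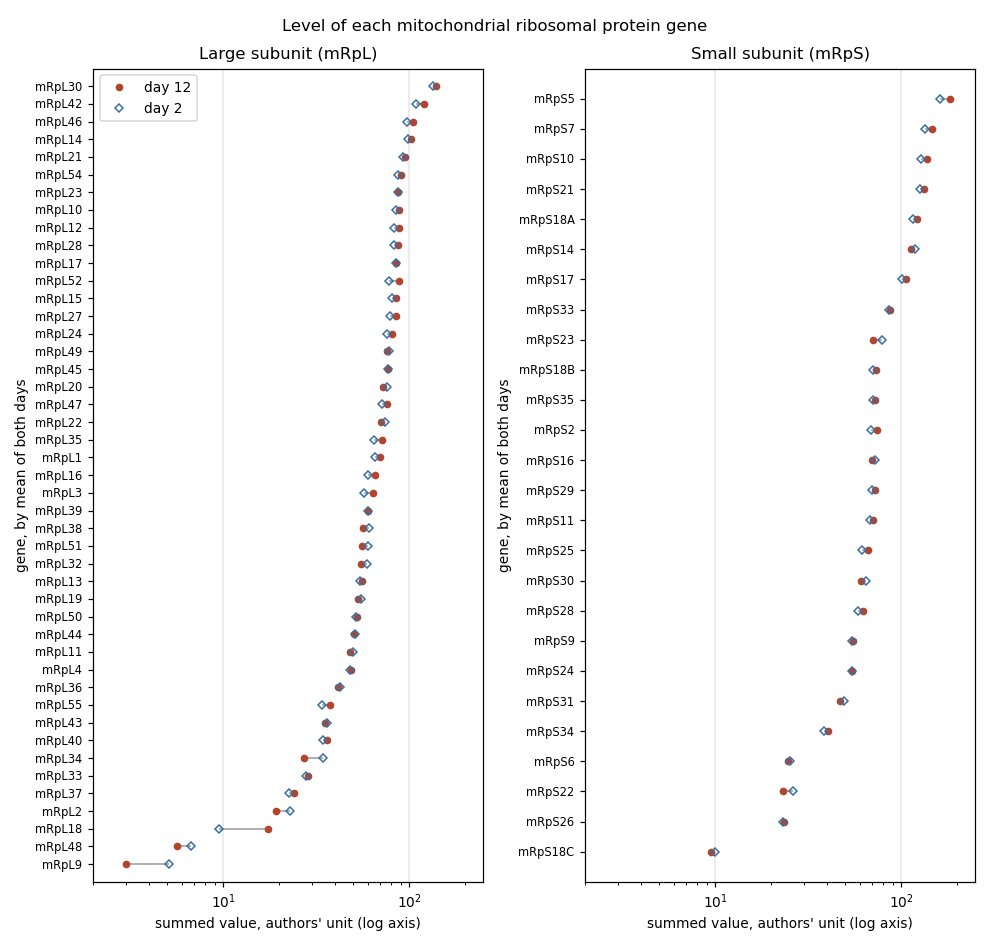
Summed value of each of the 71 genes at day 12 (filled circles) and day 2 (open diamonds), in the authors' unit on a log axis, by subunit and in order of the mean of both days. The symbols of most genes lie on or beside each other; mRpL9 and mRpL18, at the low end of the large subunit, have the widest gaps.

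No member passed the adjusted test. By the authors' deposited table, an adjusted p under 0.05 belonged to 0 of 71 main transcripts, the most abundant of each gene, against 0.218% of all genes. Taking the lowest p of any transcript, it was again 0 members, against 0.302% of all genes. By main transcript only 13 of 5954 genes passed, so 0 of 71 is near the background and says little about the members. The adjusted p of the 96 member transcripts lay between 0.151 and 1.00 by that table. At an unadjusted p under 0.05 there were 7 of 71 main transcripts, or 9.86%, against 22.5% of all genes, and likewise 7 by any transcript, against 25.3%. The gap was smaller among genes with 1 listed transcript of 400 to 1200 nt and a mean level of 20 to 200. There it was 6 of 43 members, or 14.0%, against 21.3% of all 733. Of all 71 members, 6 had an unadjusted p under 0.05 with the lower mean at day 12, against 9.07% of all genes, which is near the background. With the higher mean it was 1 of 71, against 13.5% of all genes. By size, 438 genes, 7.36% of all, had sums that differed by at least 0.5 on the log2 scale, and among the 71 members 2 did, mRpL9 and mRpL18.

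The levels spanned a 42.4-fold range between the highest and lowest mean of both days, but 44 of 71 genes stood between 50 and 110. The most abundant were mRpS5, mRpS7, mRpL30, mRpS10 and mRpS21. mRpS5, whose bacterial counterpart lines the path of the messenger RNA into the ribosome, summed to 184 at day 12 and 161 at day 2. mRpS7 and mRpS10, whose bacterial counterparts build the head of the small subunit, summed to 146 and 138 at day 12, and to 134 and 128 at day 2. mRpL30 summed to 140 at day 12 and 135 at day 2, and mRpS21 to 133 at day 12 and 127 at day 2. The least abundant were mRpL2, mRpL18, mRpS18C, mRpL48 and mRpL9, between 19.2 for mRpL2 and 3.00 for mRpL9 at day 12. Without a spread over libraries, neighbours in this order cannot be told apart.

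To the region of the peptidyl transferase, where peptide bonds form, 5 listed genes were assigned. mRpL2, the counterpart of a bacterial protein next to the catalytic site, summed to 19.2 at day 12 and 22.9 at day 2, the lowest level of this group and its one lower gene. Its main transcript was at 15.7 at day 12 and 19.2 at day 2 (log2 ratio -0.30, p = 0.0123 before and 0.184 after adjustment, by the authors' deposited table). mRpL3, which also reaches towards the catalytic site in bacteria, was at 63.8 at day 12 and 57.2 at day 2 (by the authors' deposited table, unadjusted p = 0.164). mRpL16, which helps to seat transfer RNA in bacteria, was at 65.9 at day 12 and 59.9 at day 2. mRpL27, the tail of which reaches the catalytic site in bacteria, was at 85.0 at day 12 and 79.2 at day 2. mRpL14 was also assigned to this group, though no contact with the catalytic site is claimed for it here. It summed to 103 at day 12 and 98.2 at day 2. The group as assigned thus held 4 higher genes, mRpL14 among them, and 1 lower one, with a median log2 ratio of 0.10.

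The proteins around the exit tunnel, through which the new chain leaves the ribosome, numbered 7 genes. Their log2 ratios ran from -0.07 to 0.10, with 4 higher and 3 lower. mRpL4 was at 48.7 at day 12 and 48.4 at day 2. mRpL22 was at 70.3 at day 12 and 74.1 at day 2, the lowest ratio of the group. mRpL45, which in mammals ties the ribosome to the inner membrane, was at 77.3 at day 12 and 76.7 at day 2. mRpL47, the counterpart of the bacterial protein L29 in mammals, was at 76.3 at day 12 and 71.1 at day 2, the highest ratio. By the authors' deposited table, of the 7 genes 0 had an unadjusted p under 0.05, against 22.5% of all genes, and with so few genes little can be read from this count.

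The stalks are the mobile arms that take up elongation factors and release spent transfer RNA. mRpL12, the factor-binding stalk protein, which in Drosophila is needed for the growth driven by Cyclin D and Cdk4, was at 88.5 at day 12 and 82.8 at day 2. mRpL10, which holds the mRpL12 copies, was at 88.4 at day 12 and 84.6 at day 2. mRpL1, of the other stalk, was at 69.6 at day 12 and 65.6 at day 2. mRpL11, at the base of the factor stalk, was at 48.2 at day 12 and 49.9 at day 2, the one lower gene of 4. The log2 ratios of the 4 ran from -0.05 to 0.10.

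The central protuberance, the crown of the large subunit, held the widest spread. mRpL18, whose bacterial counterpart binds 5S ribosomal RNA, was at 17.4 at day 12 and 9.48 at day 2, the highest log2 ratio of all members, 0.88. Its unadjusted p was nevertheless 0.978 by the authors' deposited table. mRpL48 was at 5.66 at day 12 and 6.73 at day 2, a log2 ratio of -0.25. mRpL46 was found at 106 at day 12 and 97.8 at day 2, and mRpL38 at 56.6 at day 12 and 60.6 at day 2. mRpL40 was at 36.2 at day 12 and 34.7 at day 2. mRpL55, which is essential for development in Drosophila and in mammals takes the place of the bacterial L31, was at 37.5 at day 12 and 34.1 at day 2. The genes farthest from 0 in this group, mRpL18 and mRpL48, were also its least abundant.

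**Figure D2:**
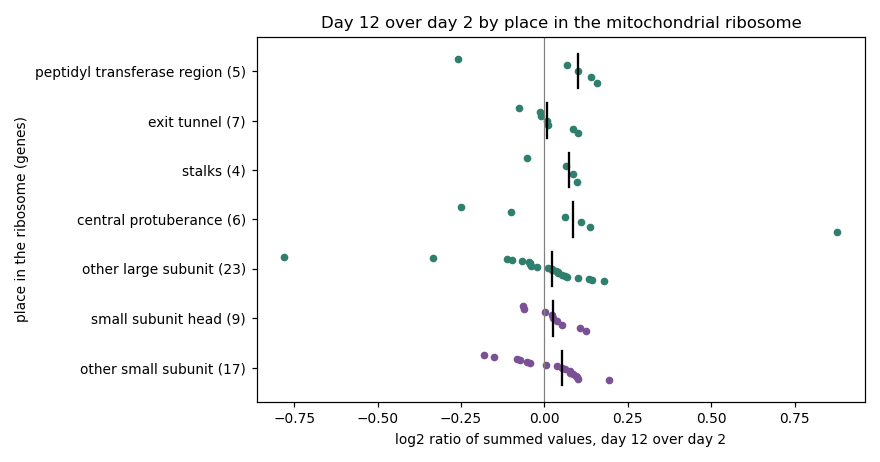
Log2 ratio of the summed values, day 12 over day 2, for each gene by its place in the ribosome (the number of genes in brackets; bars are medians; green, large subunit; purple, small subunit). Most points lie within 0.1 of 0, and the 2 points beyond 0.5 in size are mRpL9 and mRpL18.

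The other 23 large subunit genes had a median log2 ratio of 0.02, with 13 higher and 10 lower. mRpL9, whose bacterial counterpart reaches out beside the L1 stalk, was at 3.00 at day 12 and 5.15 at day 2, the lowest level and the lowest log2 ratio (-0.78) of all members. Its unadjusted p was 0.522 by the authors' deposited table. mRpL34, a very short protein in bacteria, with the shortest main transcript of the members (327 nt), was at 27.2 at day 12 and 34.3 at day 2. Its log2 ratio was -0.34 and its unadjusted p 0.102 by the authors' deposited table. mRpL35 was at 71.9 at day 12 and 65.1 at day 2 (unadjusted p = 0.295 by the authors' deposited table).

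Of the 4 large subunit genes with an unadjusted p under 0.05, mRpL2 was described above and the other 3 are particular to mitochondria. mRpL51 was at 55.5 at day 12 and 60.0 at day 2 (log2 ratio -0.11), with the lowest p of all members by the authors' deposited table, 0.00528 before and 0.151 after adjustment. mRpL43, which has a thioredoxin-like fold in mammals as mRpL51 does, was at 35.2 at day 12 and 36.2 at day 2 (by the authors' deposited table, unadjusted p = 0.0190). mRpL52 was at 88.5 at day 12 and 78.1 at day 2 (log2 ratio 0.18, by the authors' deposited table, unadjusted p = 0.0129). It was the one member with a low p and the higher mean at day 12. The log2 ratio of mRpL43 was -0.04, while mRpL18, at 0.88, had a p near 1.

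In the small subunit, the 9 genes of the head had log2 ratios from -0.06 to 0.13, with 7 higher and 2 lower. An unadjusted p under 0.05 by the authors' deposited table belonged to 0 of the 9, against 22.5% of all genes, again a count over few genes. mRpS29, the GTP-binding protein known in mammals as DAP3, was at 72.0 at day 12 and 69.5 at day 2. mRpS14 was at 113 at day 12 and 118 at day 2, and mRpS31 at 47.1 at day 12 and 49.1 at day 2; these were the lower genes. mRpS24, the counterpart of the bacterial S3 in mammals, was at 54.4 on both days.

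Among the other 17 small subunit genes, 11 were higher and 6 lower, with a median log2 ratio of 0.05. mRpS6, whose bacterial counterpart pairs with S18 on the platform, was at 24.5 at day 12 and 25.3 at day 2 (p = 0.00792 before and 0.164 after adjustment, by the authors' deposited table). mRpS16, an early binder of the ribosomal RNA in bacteria, was at 69.7 at day 12 and 72.3 at day 2 (by the authors' deposited table, unadjusted p = 0.0359). mRpS23, particular to mitochondria, was at 70.6 at day 12 and 78.4 at day 2 (by the authors' deposited table, unadjusted p = 0.0291). mRpS22, also particular to mitochondria, was at 23.2 at day 12 and 26.2 at day 2, the lowest log2 ratio of the small subunit, -0.18. Its unadjusted p was 0.110 by the authors' deposited table.

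The bacterial protein S18 has several relatives in animal mitochondria, and their levels lay far apart. mRpS18A was at 122 at day 12 and 115 at day 2, mRpS18B at 72.8 at day 12 and 70.9 at day 2, and mRpS18C at 9.47 at day 12 and 9.95 at day 2. In mammals the C form holds the place of S18 in the small subunit and the A form lies in the large subunit, as does mRpS30. As listed, the form that fills the S18 place in mammals was thus the least abundant of the S18 group, while its partner mRpS6 stood at 24.5 at day 12. However, mRpS18C was listed only by 1 transcript assembled by the authors, and mRpS18A and mRpS18B by annotated ones. mRpS18C also shares 58 bp with CG15536 of the opposite strand, so its low level may not compare directly with theirs. The log2 ratios of the A, B and C forms were 0.08, 0.04 and -0.07, and their unadjusted p 0.145, 0.973 and 0.0838 by the authors' deposited table.

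tko and bonsai code for the counterparts of bacterial S12, of the decoding centre, and S15, and carry other symbols because they were named for mutants in Drosophila. tko was at 127 at day 12 and 112 at day 2, and bonsai at 83.5 at day 12 and 81.1 at day 2, within the levels of the members. Neither had an unadjusted p under 0.05: it was 0.184 for tko and 0.266 for bonsai by the authors' deposited table.

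By subunit and by descent the medians lay close together. The median log2 ratio was 0.03 over 45 large and 0.04 over 26 small subunit genes. It was 0.05 over 44 genes with a bacterial counterpart and 0.02 over 27 particular to mitochondria. Of the relatives of bacterial S18, only mRpS18C was counted as its counterpart, and mRpS18A and mRpS18B were placed with the 27. At an unadjusted p under 0.05 by the authors' deposited table there were 4 large and 3 small subunit genes, and 3 genes with and 4 without a bacterial counterpart. These are 8.89% of the large and 11.5% of the small subunit genes, 6.82% of those with and 14.8% of those without a bacterial counterpart, against 22.5% of all genes. These medians and shares were not tested against each other.

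The ratio went along with the level. Of the 24 most abundant members, 20 were higher and 4 lower at day 12, with a median log2 ratio of 0.07. Of the 24 least abundant, 11 were higher and 13 lower, with a median of -0.03. Spearman's rho between level and log2 ratio was 0.42 over the 71 genes, a description over genes that share the same libraries, and both measures come from the same 2 means. All listed genes did likewise: 74.6% of 949 genes in the level range of the most abundant members were higher, and 51.0% of 3503 in the range of the least abundant.

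**Figure D3:**
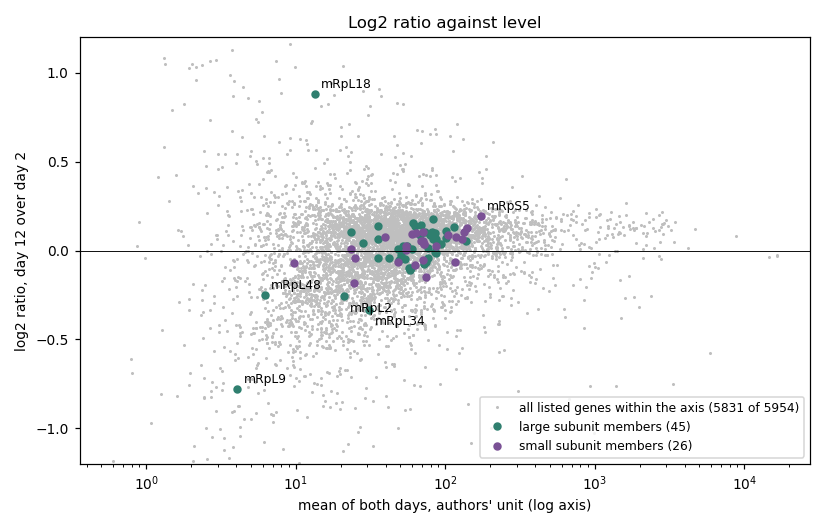
Log2 ratio, day 12 over day 2, against the mean of both days (log axis) for members of the large (green) and small subunit (purple) over all listed genes within the axis (grey). Most members lie near 0, among other genes of like level, and mRpL18 and mRpL9 lie apart at low levels.

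The authors' p went with the ratio of the means differently on either side of 0. Of the members whose main transcript was higher by up to 0.1 on the log2 scale, 0 of 30 had an unadjusted p under 0.05, and their median p was 0.703 by the authors' deposited table. For all genes at levels of 20 to 200 the same band held 982 genes, 7.84% of them at p under 0.05, with a median of 0.419. For a difference of at least 0.1 upwards, 1 of 16 members passed, against 36.3% of 1538 genes. For main transcripts lower by up to 0.1, 3 of 17 members passed, with a median p of 0.128, against 9.42% of 584 genes with a median of 0.350. For main transcripts lower by more than 0.1, 3 of 8 members passed, or 37.5%, with a median p of 0.106, against 29.5% of 889 genes with a median of 0.139. Of the 16 members with p over 0.8 by the authors' deposited table, 15 had the higher mean at day 12. The test behind these p-values is not stated in the sources at hand, so an unadjusted p near 0.05 is read here as a rank and not as a measure of change.

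**Figure D4:**
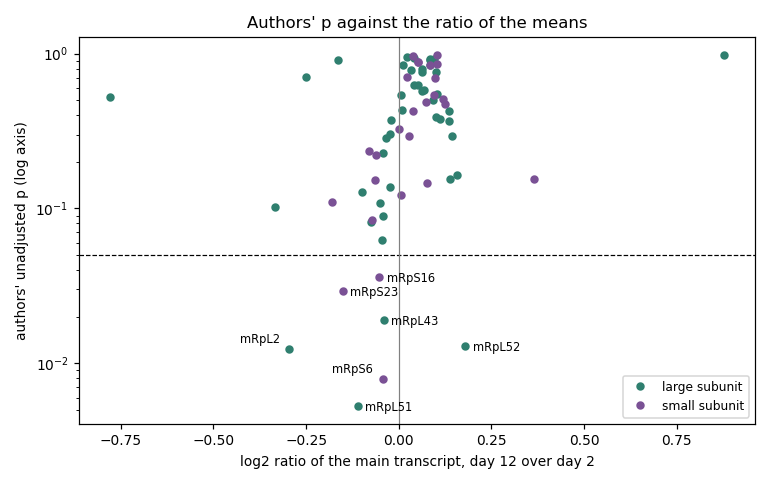
The authors' unadjusted p (log axis) against the log2 ratio of the main transcript, day 12 over day 2, for the 71 genes (green, large; purple, small subunit; dashed line, p of 0.05). The 7 named genes lie under the line, 6 of them left of 0, while the points with the highest p lie mostly right of 0.

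Most members had a single listed transcript. This held for 59 of 71, or 83.1%, against 64.4% of all listed genes, so that for most members the sum and the transcript are the same. In all, 96 member transcripts were listed, 75 annotated and 21 assembled by the authors, and the authors' deposited table put 7 of them, the main transcripts named above, at an unadjusted p under 0.05, against 16% of all listed transcripts. mRpS5 had 9 listed transcripts. Its main one, FBtr0111146, was at 109 at day 12 and 85.0 at day 2, while FBtr0111144 was at 29.7 at day 12 and 30.0 at day 2. FBtr0111147 was at 3.12 at day 12 and 9.71 at day 2. The minor assembled transcript TCONS_00007613 was at 2.01 at day 12 and 1.00 at day 2. The unadjusted p of these 4 ran from 0.155 to 0.977 by the authors' deposited table. The sum of mRpS5 had a log2 ratio of 0.19, against 0.37 for its main transcript.

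mRpL2 had 5 listed transcripts, of which the 4 minor ones were assembled by the authors and stood at 1.42 or less on either day. One of these was listed at 0 at day 12 and at 1.35 at day 2, and another was at 1.02 at day 12 and 0.162 at day 2. mRpL20 is added here after its values were seen. Its main transcript was at 50.7 at day 12 and 56.8 at day 2, and 2 minor ones were at 8.49 and 3.94 at day 12, against 3.63 and 1.54 at day 2. The most abundant minor one went the other way, at 9.30 at day 12 and 13.9 at day 2. Its sum came to 72.5 at day 12 and 75.9 at day 2. In mRpS5, mRpL2 and mRpL20 some minor transcripts differed between the days by a larger ratio than the sum did. How the authors shared reads among overlapping transcripts is not stated in the sources at hand.

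**Figure D5:**
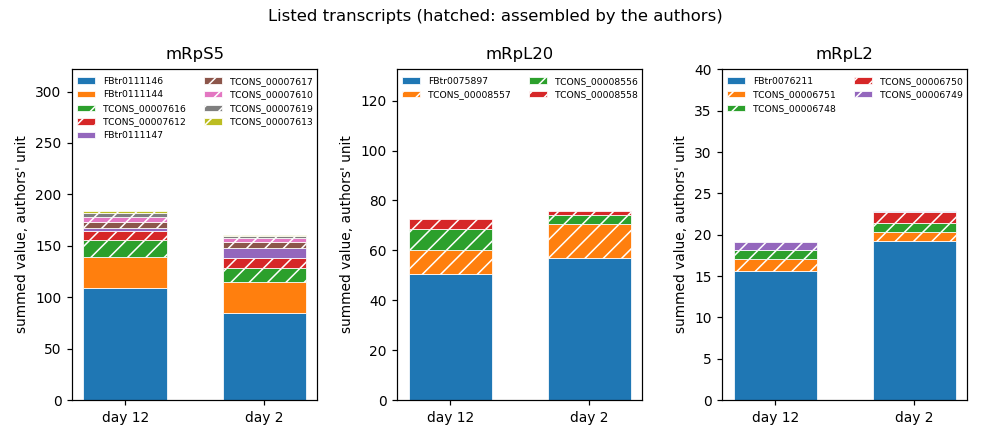
Listed transcripts of mRpS5, mRpL20 and mRpL2, stacked by day in the authors' unit (hatched: assembled by the authors). In all 3 genes 1 annotated transcript makes up most of the sum on both days, and some minor transcripts differ between the days by a larger ratio than the sums do.

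The members share a compact build. The 68 annotated main transcripts had a median length of 740 nt, from 327 to 1829 nt, and a median of 2 exons, against 1776 nt and 3 exons over 5241 main transcripts of all listed genes. Length went with neither measure by much: Spearman's rho was -0.17 with the level and 0.01 with the log2 ratio over the 68 genes. The genes are spread over the X chromosome (11), 2L (12), 2R (10), 3L (17) and 3R (21). mRpS5 (FBgn0044510 in the table) lies on 3L between 24537236 and 24543534 on the plus strand in dm6 coordinates, mRpL18 on 2R between 12756434 and 12757173 on the plus strand, and mRpL9 on 3R between 15330738 and 15331588 on the plus strand.

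Many members touch a neighbour, though the like share of all listed genes was not counted. In the Ensembl annotation 41 of 71 overlap another gene, for 30 of them a listed one, and the strand setting of the counts is not stated in the sources at hand, so reads in such stretches cannot be assigned with certainty. mRpL13 lies wholly within the span of CG10602 on the same strand, which summed to 154 at day 12 and 146 at day 2. mRpL9 shares 5 bp with Fkbp39 of the opposite strand, which was at 531 at day 12 and 509 at day 2. mRpL18 shares 41 bp with ox of the opposite strand, at 109 at day 12 and 129 at day 2. The median log2 ratio was 0.02 for the 41 members that overlap a gene and 0.05 for the 30 that do not. Of the 41, 5 had an unadjusted p under 0.05 by the authors' deposited table, or 12.2%. Of the 30, 2 did, or 6.67%, against 22.5% of all genes. The part of overlaps in these values was not tested.

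The ribosomal RNAs with which these proteins assemble were listed at low values. mt:lrRNA, of the large subunit, was at 11.9 at day 12 and 16.8 at day 2 (p = 0.0394 before and 0.280 after adjustment, by the authors' deposited table). mt:srRNA, of the small subunit, was at 11.9 at day 12 and 21.9 at day 2 (unadjusted p = 0.104 by the authors' deposited table). Both had a log2 ratio (-0.50 and -0.88) below that of every member except mRpL9, which lay between them. The labels give mRNA in the titles and total RNA as the molecule, and how ribosomal RNA was treated is not stated in the sources at hand, so these values are not read as amounts of ribosome.

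Of the factors that work on this ribosome, 8 of 10 known by the symbols looked up were listed, with a median log2 ratio of 0.05, 6 higher and 2 lower. None passed the adjusted test, and 1 higher and 1 lower gene of the 8 had an unadjusted p under 0.05 by the authors' deposited table, against 22.5% of all genes. mEFTu1, the elongation factor that brings transfer RNA, summed to 72.7 at day 12 and 97.6 at day 2, and its main transcript had an unadjusted p, by the authors' deposited table, of 0.0238. mEFTs, which recharges it, was at 66.6 at day 12 and 63.0 at day 2 (by the authors' deposited table, unadjusted p = 0.00590). The related mEFTu2 was at 34.7 at day 12 and 32.5 at day 2. The translocation factor mEFG1 was at 51.3 at day 12 and 51.2 at day 2. The initiation factors mIF2 and mIF3 summed to 8.78 and 42.3 at day 12, and to 10.6 and 41.4 at day 2. The direction of mIF2 turned with the summing: its main transcript was at 8.68 at day 12 and 8.50 at day 2. The release factor mRF1 was at 31.1 at day 12 and 29.1 at day 2. The recycling factor mRRF1 was at 38.0 at day 12 and 35.3 at day 2.

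The proteins of the cytosolic ribosome are the nearest comparison. Their genes were taken by symbol, which also took in RpL7-like, RpL24-like and RpLP0-like and would miss a gene under another symbol. The 85 listed genes taken this way had a median level of 1401 at day 12 and 1348 at day 2. This was 20.1-fold and 20.5-fold that of the mitochondrial ribosomal proteins on those days. Their log2 ratios ran from -4.84 to 0.49, against -0.78 to 0.88 for the mitochondrial set, with a median of 0.10 against 0.04. The quartiles were 0.01 and 0.15 for the cytosolic set, a distance of 0.14, and -0.04 and 0.09 for the mitochondrial set, also a distance of 0.14. Of the cytosolic genes 76.5% were higher at day 12, against 64.8% of the mitochondrial ones, and 29.4% had a single listed transcript, against 83.1%. Within 0.1 of 0 lay 30.6% of the cytosolic and 69.0% of the mitochondrial genes, a share that also depends on the median. No test of this difference was possible on means.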

How the data were processed

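Libraries of linear RNA from day 12 and day 2 follicles were compared, in groups taken from the titles. The tools named per the submitters' processing notes are DESeq2, HISAT2, STAR and StringTie, and the build is dm6. Their versions and roles, the strand setting and the test are not stated in the sources at hand. The signal values the authors deposited are abundances per transcript, as means of 3 libraries; the labels do not say if they are FPKM or TPM. The p-values are those of the authors' deposited table, and the adjusted ones matched a Benjamini-Hochberg correction computed over all 10162 transcripts. In the listed transcripts the higher of both means was at least 0.683.

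Values were summed per gene and their log2 ratio taken with no pseudocount and no filter (Python 3.11.15, pandas 2.3.3); the summing was tested on simulated data. A gene's p is that of its most abundant transcript. Because the table holds means, no replicate test, SD or left-out library was possible. Subunits were read from the symbols, and bacterial counterparts from the numbers (up to 36 for mRpL, 21 for mRpS) with 7 corrections from mammalian names. Places in the ribosome were assigned from general knowledge of bacterial and mammalian names. Lengths, positions and overlaps come from the Ensembl annotation of BDGP6 (dm6 coordinates); mRpS5 was matched by symbol. The members and lists were chosen with earlier results of these data known. Genes were named for an unadjusted p under 0.05, for the 5 highest and lowest levels, for the 5 largest ratios each way, for opposed transcripts, and as S18 relatives, tko, bonsai, translation factors and mitochondrial rRNA; those named for their place in the ribosome were added after the values were seen.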

Additional observations from a re-analysis of the deposited data

How the results depend on the processing

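The alternatives were use of each gene's main transcript alone, annotated transcripts only (68 genes), a pseudocount of 1, a mean of at least 10 (68 genes), division by the listed totals, centring on all genes, single-transcript genes only (59 genes) and, for the calls, the lowest p of any transcript. The counts of 0 members at an adjusted and 7 at an unadjusted p under 0.05 by the authors' deposited table were the same under each of the 3 alternatives run for them. Medians moved by over 0.02 on the log2 scale under centring only, which subtracts the median of all listed genes, 0.04. They were then -0.0058 for all members, -0.0091 for the large and -0.0050 for the small subunit, 0.0090 for genes with a bacterial counterpart and -0.020 for those particular to mitochondria. The number of higher members was 32 under centring and 41 under division by the totals, against 46. Counting mRpS18A and mRpS30 in the large subunit, an alternative chosen after seeing the data, left both subunit medians at 0.03 and 0.04. No paired analysis was possible because the deposited table gives 1 mean per day; leaving out a library could not be run for the same reason. The depth of the libraries is unknown, and a difference that depth or spread could hide cannot be bounded.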

Other observations

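Genes of protein import, by which the ribosomal proteins reach the mitochondrion, were listed for 15 of the 21 known by the symbols looked up. Of these, 11 were higher and 4 lower at day 12, with a median log2 ratio of 0.11. None passed the adjusted test, and 2 had an unadjusted p under 0.05 by the authors' deposited table, both with the higher mean at day 12. Over all genes 22.5% had such a p, and 13.5% had it with the higher mean at day 12, so 2 of 15 is near the background. Tom40, the channel of the outer membrane, was at 149 at day 12 and 126 at day 2 (p = 0.000548 before and 0.0876 after adjustment, by the authors' deposited table). Roe1, the nucleotide exchange factor of the import motor, was at 181 at day 12 and 166 at day 2 (by the authors' deposited table, unadjusted p = 0.00470). Tim23, of the inner membrane channel, summed to 352 at day 12 and 331 at day 2, and is counted as higher by that sum. Its annotated main transcript went the other way, at 247 at day 12 and 324 at day 2, and a transcript assembled by the authors was at 103 at day 12 and 0.033 at day 2. ttm50, a subunit of the same inner membrane complex, was at 37.9 at day 12 and 45.9 at day 2, the lower side of the list.

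Genes that copy, transcribe or handle mitochondrial nucleic acids were listed for 9 of 16, with 5 higher and 4 lower and a median log2 ratio of 0.00. TFAM, which packs mitochondrial DNA, was at 162 at day 12 and 153 at day 2. bsf, a partner of mitochondrial messenger RNAs, was at 41.2 at day 12 and 48.8 at day 2. By the authors' deposited table, of the 9 genes 0 had an unadjusted p under 0.05, against 22.5% of all genes, and the lowest adjusted p was 0.528.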
